A study of Solanum lycopersicum with 18 samples.

Results

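Plants exposed to heat shut down the expression of many genes while heat shock genes are switched on. HSFA1a is a heat stress transcription factor, a protein that binds DNA and activates genes in heated cells, and in tomato it is regarded as a master regulator of the response. Genes that lose expression in the heat are a separate side of that response, and their level after a heat shock can be compared between WT and lines that carry a construct against the factor.

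The genes described here were lower in heated wild type (WT) leaves and less so in leaves of both hsfa1a knock-down lines. RNA came from the fourth leaf of 4-week-old tomato plants of the cultivar Moneymaker, either kept at 24 °C (0 h) or held at 45 °C for 1 h. WT is the untransformed cultivar, whereas the lines CS2 and CS3 carried a hairpin RNA construct directed against HSFA1a (RNA interference), which lowers a transcript and does not remove the gene, and each is a single transgenic line. The table of counts holds 3 libraries for each of the 6 conditions, 18 in all, and names the lines CS2 and CS3, while the sample labels name them differently without pairing the names. The labels call the libraries of a condition biological replicates, and per the study's methods a replicate was a random pool of plants grown under the same conditions, so that p-values measure the spread between such pools.

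Members were chosen on measured values. Counts were divided by the total of the library to give CPM, the counts per 1000000 counts of that library, and M is the log2 of the mean CPM of 3 libraries plus 1. A gene had to hold at least 50 counts in at least 2 libraries, to have an M in WT at 1 h that was lower by 1 or more than at 0 h, and to have an M at 1 h that was higher by 1 or more than that of WT in CS2 and also in CS3. Of 35821 genes 15312 passed the filter on counts, 2096 of them (13.7%) met the condition on WT, and 274 met all conditions (1.79% of the genes that passed the filter). The heat change in WT and the differences between lines and WT at 1 h are thus given as description only. All 274 genes passed the filter by definition, and the other 1822 genes that were lower in heated WT serve as the comparison.

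The count table lists identifiers without names, and a table of RefSeq genes held 0 of these identifiers. The genes are therefore given by identifier and position on the M82 assembly, with no statement on what they encode. The HSFA1a transcript itself and leaf marker genes were not analysed here for the same reason, and the knock-down was not checked.

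Total counts per library ran from 1713285 to 3669618, the highest of them in CS2 1 h replicate 3 and the lowest in CS2 1 h replicate 1. CS3 0 h replicate 2 stood apart, with a correlation of log2(CPM + 1) over all tested genes of 0.877 to another library of its condition, the lowest found in any condition, and a median absolute deviation from the other libraries of its condition of 0.30, the highest of the 18. The main counts and tests that rest on this library are given with and without it. Some others are given only with it, among them those over genes that met the count filter in other libraries. Scaling also shifted all genes, since with column totals the median change with heat over all tested genes was -0.13 in WT, in CS2 -0.18 and in CS3 -0.17, whereas TMM scaling gave 0.01, 0.00 and 0.00. The medians of the 274 genes moved in parallel, from -2.01 to -1.87 in WT, from -0.51 to -0.33 in CS2 and from -0.88 to -0.70 in CS3.

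In unheated leaves the median CPM over the 274 genes was 25, 30.5 and 26.3 in the WT libraries. It was 28.5, 26.7 and 26.9 in CS2, and 34.4, 38.0 and 26.1 in CS3. After 1 h at 45 °C it was 4.79, 5.59 and 5.85 in WT, while CS2 had 16.1, 18.9 and 21.4 CPM and the CS3 libraries 17.8, 17.3 and 18 CPM. The heated lines thus lay between unheated leaves and heated WT, without overlap with either in these medians. In whole leaves, fewer cells of a type and less RNA per cell cannot be told apart. Reads on the 274 genes together took 9896 to 11601 CPM in unheated WT, 2439 to 2547 CPM in heated WT, and 6984 to 9116 CPM in the heated lines.

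**Figure D1:**
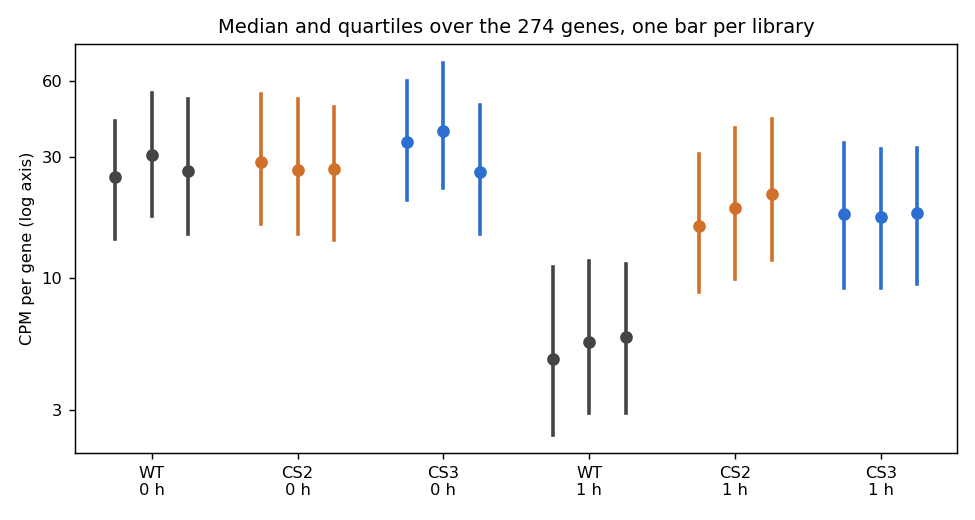
CPM of the 274 genes in each library on a log axis, with the median as a point and the lower and upper quartile as the ends of the bar, for WT (grey), CS2 (orange) and CS3 (blue) at 0 h and 1 h. The medians of heated WT lie at 4.79 to 5.85 CPM, below those of all heated line libraries at 16.1 to 21.4 CPM.

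By single genes the picture was the same. Every WT 1 h library was below every WT 0 h library for 266 of the 274 genes, against 36.5% of all tested genes, and all 6 heated libraries of the lines were above all 3 heated WT libraries for 253, against 15.2% of all tested genes. The rule used both contrasts, so that nothing is read from these counts. The change with heat in WT ran from -4.14 to -1.02 with a median of -2.01. At 1 h the genes were above WT by 1.00 to 4.61 in CS2 with a median of 1.49, and by 1.00 to 3.44 in CS3 with a median of 1.39. A difference of at least 1 from WT at 1 h was also met by 5.77% of all tested genes in CS2 and by 4.37% in CS3.

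Counts behind the heated WT values were low for a share of the genes. All 3 heated WT libraries held at least 10 counts for 130 genes, and 3 counts or fewer for 16 genes, none of which was at 0 in all of them. For these genes the pseudocount of 1 CPM makes the differences smaller than the underlying ratios.

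How much of the repression was left was next described within each line, without a claim that the lines differ, which is tested further on. The change from 0 h to 1 h within a line uses its heated libraries, which were part of the rule, and its unheated ones, which entered the count filter alone, so that it too is a description. In CS2 68 genes were still at -1 or lower, 138 lay between -1 and 0, and 68 were at 0 or higher, 11 of them at 1 or higher. In CS3 121 genes were at -1 or lower, 114 lay between -1 and 0, and 39 were at 0 or higher, 4 of them at 1 or higher. In both lines at once 152 of the 274 genes stayed above -1 (55.5%), against 29.8% of all 2096 genes that were lower in heated WT, the 274 included. A further 54 genes stayed above -1 in CS2 alone and 1 in CS3 alone, and 67 were at -1 or lower in both lines. Without CS3 0 h replicate 2, 98 of the 274 genes were at -1 or lower in CS3, 127 between -1 and 0 and 49 at 0 or higher, and 169 (61.7%) stayed above -1 in both lines. The share of the 2096 genes without this library is not given here, so that the 61.7% has no matching value.

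Relative to the change in WT, the change with heat was smaller by a median of 1.51 in CS2 and of 1.17 in CS3, or of 1.28 in CS3 without CS3 0 h replicate 2. With single heated libraries in place of their mean, this median was 1.34, 1.52 and 1.7 in CS2 (SD 0.18), and 1.13, 1.09 and 1.21 in CS3 (SD 0.06). Over heated libraries alone the CS2 value thus spread more, and its highest value came from CS2 1 h replicate 3, the library with the highest total. These SDs leave out the spread of the unheated and WT libraries. With any 1 library left out and the genes chosen anew, the median ran from 1.46 to 1.62 in CS2. In CS3 it ran from 1.07 to 1.28, so that no order of the lines in spread is read from the SDs. All 274 genes had a smaller fall in CS2 than in WT, and 273 had one in CS3, or 272 without CS3 0 h replicate 2. The exception with all libraries was Solyc08g074630.2, with -1.14 in WT, -0.91 in CS2 and -2.25 in CS3. Its M in unheated CS3 was above that of unheated WT by 2.16, but its unheated libraries disagreed. They held 388, 464 and 21 counts in CS3 and 342, 35 and 23 in CS2, against 62, 89 and 43 in WT.

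**Figure D2:**
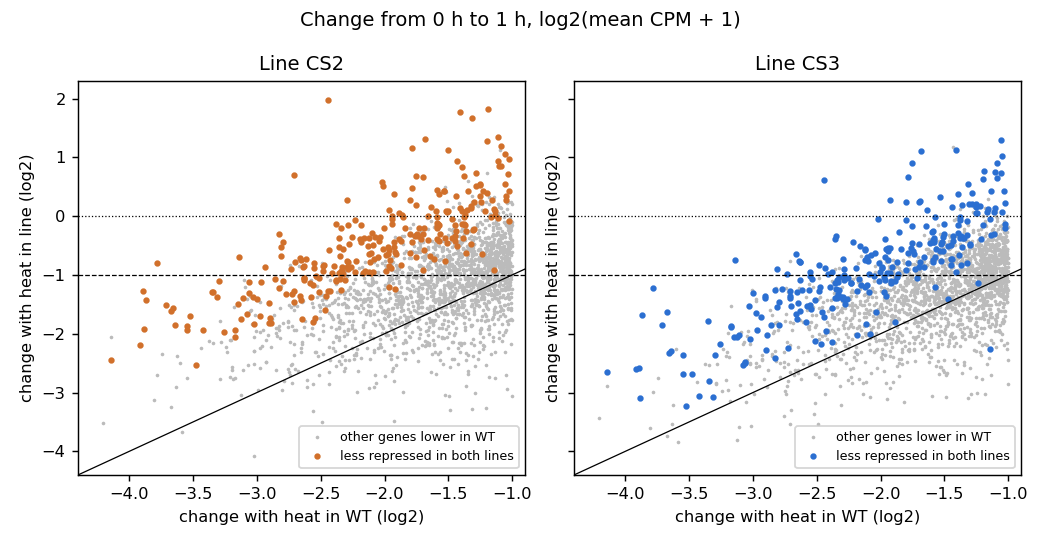
Change from 0 h to 1 h in WT (horizontal) against the change in line CS2 (left) and CS3 (right), both as differences of log2(mean CPM + 1), for the 274 genes (coloured) and the other 1822 genes lower in heated WT (grey). The solid line marks equal change, the dashed line a change of -1 and the dotted line no change. All coloured points lie above the solid line in CS2 and all but 1 in CS3. The coloured points on or above the dotted line are the 68 and 39 genes at 0 or higher. Some grey points also lie above the dotted line, up to 1.12 in CS2 and 1.17 in CS3.

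The other 1822 repressed genes showed less of a difference between lines and WT, as the rule requires. Their median change with heat was -1.45 in WT, -1.15 in CS2 and -1.28 in CS3, and their median difference from WT at 1 h was 0.42 in CS2 and 0.27 in CS3. Of them 906 were above WT in both lines by less than 1, 183 reached 1 in CS2 alone and 102 in CS3 alone, and 306 were below WT in both lines. Another 331 were below WT in 1 line only, some of which reached 1 in the other line and are also counted there. No gap separated the 274 genes from the others at the thresholds. Just inside the thresholds stood Solyc12g088460.3 and Solyc01g079580.3 with a WT change of -1.02 each, Solyc08g078520.4 (1.00) and Solyc12g057140.1 (1.01) for CS2 against WT, and Solyc07g032710.4 and Solyc07g054950.2 (1.00 each) for CS3 against WT. Just outside stood Solyc08g082870.3 (-0.996) and Solyc08g007060.4 (-0.99) on WT, Solyc12g015690.3 and Solyc06g050350.3 (1.00 each) on CS2, and Solyc07g039310.1 (1.00) and Solyc04g016330.3 (0.99) on CS3.

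The gene furthest above WT in the heated lines was Solyc06g008510.3 (chr6:2419759-2422896, plus strand). Unheated, Solyc06g008510.3 had 25, 34.3 and 33.6 CPM in the WT libraries. The CS2 libraries had 37.9, 36.6 and 31 CPM, and those of CS3 36, 54.7 and 30.8 CPM. Heated, it had 2.40, 9.31 and 2.93 CPM in WT. Heated CS2 stood at 132, 137 and 157 CPM, and heated CS3 at 84.6, 57.5 and 46.3 CPM. All heated CS2 libraries were above all unheated ones, whereas 1 heated CS3 library was below the highest unheated CS3 library. The change with heat was -2.44 in WT, 1.99 in CS2 and 0.62 in CS3, so that a gene lower in heated WT was at a higher level in the heated lines than in their unheated leaves.

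Solyc10g074540.1 (chr10:58689162-58690196, minus strand) had the second largest difference, and its values in both heated lines were close. Its CPM was 52.5, 80.3 and 58.3 in unheated WT and 26.8, 10.2 and 20.5 in heated WT. In heated CS2 it was 143, 267 and 205, and in heated CS3 213, 160 and 231. The libraries of the heated lines were above all of those of unheated leaves. Its highest count reached 0.73 of its length of 1035 bases, and since reads that start at the same position were counted once, its high values may be limited. Of the 274 genes 11 had a highest count of at least 0.3 of their length.

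Solyc01g081210.4 (chr1:74915177-74916919, minus strand) was a gene of low level, with 4.37 ± 1.09 CPM (SD, n = 3) in unheated WT and 1.35 ± 0.78 CPM in heated WT. It had 23.2 ± 3.20 CPM in heated CS2 and 11.1 ± 6.01 CPM in heated CS3, against 5.83 ± 1.30 and 6.12 ± 0.59 CPM unheated. This gene passed the count filter only through CS2 1 h replicates 2 and 3, with 50 and 98 counts. Solyc02g032100.4 (chr2:27261818-27263735, plus strand) had the highest mean change with heat in the lines, 1.77 in CS2 and 1.13 in CS3, beside -1.41 in WT. Its heated CS3 libraries, at 57.2, 19 and 31.7 CPM, overlapped with its unheated ones, at 13.6, 9.77 and 24.3 CPM. Together with Solyc10g074540.1 it was 1 of 2 genes at 1 or higher in both lines.

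Solyc01g007170.4 (chr1:1719993-1723079, minus strand) and Solyc01g111350.3 (chr1:91917253-91921985, minus strand) completed the 6 genes furthest above WT. Solyc01g007170.4 had 1.68 ± 1.78 CPM in heated WT, 18.7 ± 3.17 CPM in heated CS2 and 11.9 ± 2.98 CPM in heated CS3. Its unheated CS3 libraries held 17, 62.6 and 11.2 CPM, so that 1 library set their mean. Solyc01g111350.3 had 1.47 ± 1.02 CPM in heated WT, 13.3 ± 4.79 CPM in heated CS2 and 12.7 ± 1.09 CPM in heated CS3.

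**Figure D3:**
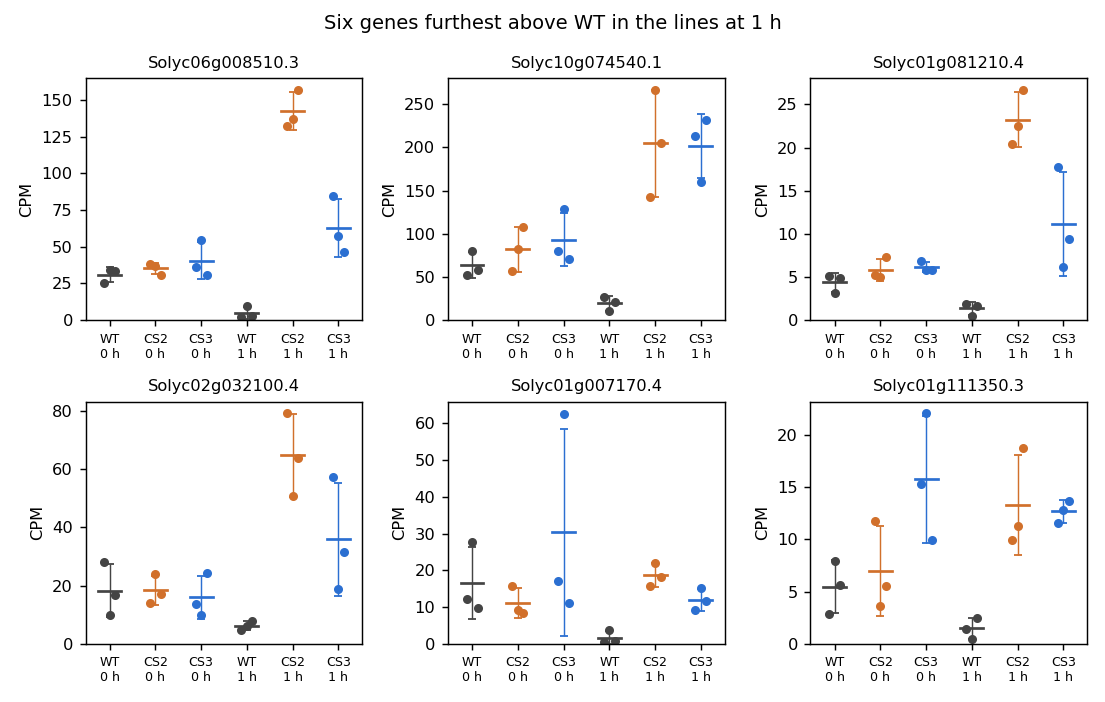
CPM of the 6 genes furthest above WT in the heated lines, in each of the 18 libraries (points), with the mean of 3 libraries (horizontal line) and the SD (vertical bar). For each of the 6 genes all points of the heated lines lie above those of heated WT, as for Solyc06g008510.3 with 46.3 CPM or more against at most 9.31 CPM.

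The genes with the largest fall in WT still fell by more than 1 in both lines, by differing amounts. Solyc07g065210.4 (chr7:67457631-67463803, minus strand) changed by -4.14 in WT, -2.44 in CS2 and -2.66 in CS3. Its CPM was 25.9, 75.4 and 28.8 in unheated WT and 0.96, 2.33 and 1.25 in heated WT, against 3.50, 4.05 and 7.36 in heated CS2 and 9.62, 20.6 and 4.71 in heated CS3. Even where the lines were above WT, all heated values were below all unheated values of the same line. Solyc12g087940.2 (chr12:66655256-66657629, minus strand) changed by -3.91 in WT, -2.19 in CS2 and -2.60 in CS3, and Solyc02g083640.4 (chr2:46587866-46590188, minus strand) by -3.89, -1.92 and -3.09. Solyc09g010530.3 (chr9:3963997-3969383, minus strand) had the largest gap between the lines in this group, with -3.89 in WT, -1.28 in CS2 and -2.59 in CS3. The lowest mean changes in the lines belonged to Solyc11g066580.3, with -2.53 in CS2 and -2.69 in CS3, and, after Solyc07g065210.4 and Solyc02g083640.4, to Solyc09g075550.3, with -1.93 in CS2 and -3.06 in CS3.

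The genes with the most reads in unheated WT had mean CPM in the heated lines between those of unheated and heated WT. Solyc03g121600.4 (chr3:65719704-65725443, plus strand) had 307 ± 63.6 CPM in unheated WT and 69.7 ± 4.23 CPM in heated WT. It had 188 ± 13.7 CPM in heated CS2 and 214 ± 29.3 CPM in heated CS3, about midway between both WT values. Solyc03g117250.4 (chr3:62475062-62478134, minus strand) had 192 ± 9.68 CPM in unheated and 41.3 ± 6.97 CPM in heated WT, and 137 ± 33.1 and 109 ± 17.8 CPM in heated CS2 and CS3. Solyc03g111810.2 (chr3:58435066-58438090, minus strand) had 174 ± 22.8 and 42.4 ± 4.00 CPM in WT, and 98.5 ± 7.75 and 97.0 ± 29.2 CPM in heated CS2 and CS3. Solyc09g014380.3 (chr9:6097774-6102047, plus strand) had 171 ± 16.3 and 33.2 ± 5.57 CPM in WT, and 84.2 ± 6.85 and 72.4 ± 8.56 CPM in heated CS2 and CS3. CPM is not corrected for length, and per 1000 bases of gene span these genes had 53.5, 62.4, 57.4 and 39.9 CPM in unheated WT.

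The count filter bears on the comparisons at 0 h and on that of the heated lines further on. Of the 274 genes 250 reached 50 counts in 2 libraries outside unheated CS3, and the others were kept only with the help of unheated CS3 libraries, so that a higher level there is in part fixed by the choice of genes. The counts for CS3 at 0 h are therefore also given over the genes that met this condition in libraries outside both conditions compared. They come from the same fit, and the restriction was chosen after seeing the data.

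To determine whether the genes already differed before the heat, each line was compared with WT at 0 h with edgeR's quasi-likelihood test, a contrast that is not in the rule, although its WT 0 h libraries are. Of the 274 genes 0 passed an adjusted p of 0.05 in CS2 and 0 in CS3, as against 0.0327% of all tested genes called higher and 0.0196% called lower in CS2, and 0.137% and 0.0914% in CS3. DESeq2 called 1 gene higher in CS2 and 0 in CS3. At an unadjusted p of 0.05, 4 genes were higher and 4 lower in CS2, beside 1.98% and 1.53% of all tested genes. In CS3 49 genes (17.9%) were higher and 6 lower, beside 5.71% and 7.19% of all tested genes, and the median log2 fold change was 0.24 over the 274 genes and 0.00 over all tested genes. Over the 230 genes that met the filter in other libraries, 36 (15.7%) were higher and 6 lower, beside 5.49% and 7.33% of all tested genes that met it there, and the median was 0.18. The number higher depended on single libraries. It was 19 of the 261 genes that still passed the filter without CS3 0 h replicate 2, with a median of 0.09, and 37 without CS3 replicate 1. It was 97 without CS3 replicate 3, and 23, 77 and 31 without WT replicate 1, 2 and 3. A fit of the unheated CS3 and WT libraries alone gave 23 of 259 genes. The shares of all tested genes in these fits and with DESeq2 are not given here. Whether the 274 genes changed more than all tested genes was therefore not tested.

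The comparison of the unheated lines with each other used libraries that entered the rule through the count filter alone. Again 0 of the 274 genes passed an adjusted p of 0.05 in edgeR's quasi-likelihood test, beside 0.0131% of all tested genes called higher in CS3 and 0.0131% called lower, and DESeq2 called 0. At an unadjusted p of 0.05, 62 genes (22.6%) were higher in CS3 and 1 was lower, beside 5.30% and 5.79% of all tested genes. The log2 fold change was above 0 for 206 of the 274 genes, beside 51.6% of all tested genes, with a median of 0.23. Among the other 1822 repressed genes 9.28% were higher at an unadjusted p of 0.05, and their median was 0.00. Over the 218 genes that met the filter in other libraries, 37 (17%) were higher and 1 lower, beside 4.83% and 5.93% of all tested genes that met it there, and the median was 0.19. Without CS3 0 h replicate 2, 6 of the 261 genes that still passed the filter were higher at an unadjusted p of 0.05 and the median was 0.11. The number was 48 without CS3 replicate 1 and 100 without CS3 replicate 3, and it was 57, 37 and 25 without CS2 replicate 1, 2 and 3. A fit of only these 6 libraries gave 38 of 262 genes. Here too the shares of all tested genes in the same fits are not given, and a change relative to them was not tested.

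**Figure D4:**
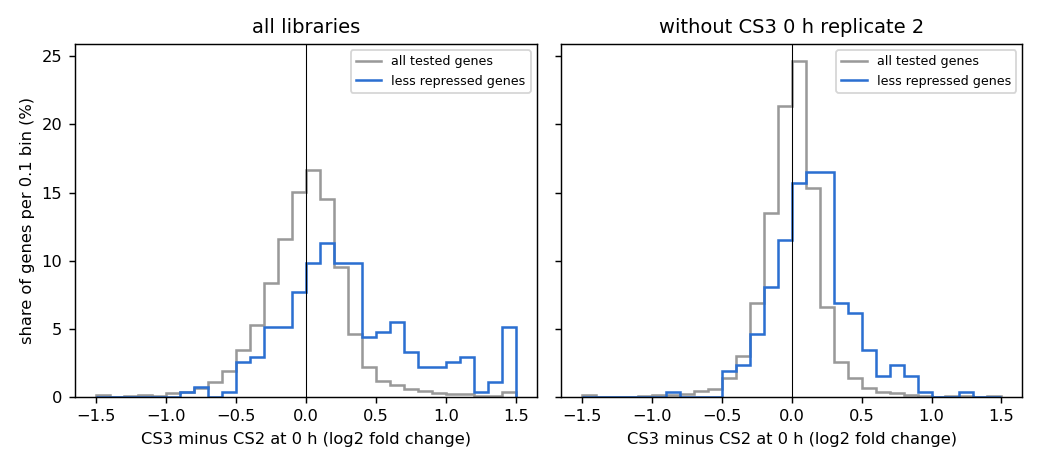
Distribution of the log2 fold change of CS3 over CS2 at 0 h from edgeR, as the share of genes in bins of 0.1, for the 274 genes (blue, 261 of them on the right) and all tested genes (grey), with all libraries (left) and without CS3 0 h replicate 2 (right). Values beyond the axis are counted in the outermost bins. The blue distribution has a median of 0.23 on the left and of 0.11 on the right.

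Single unheated libraries stood out for these genes beyond CS3 as well. CS3 replicate 2 was the highest unheated CS3 library for 160 of the 274 genes, and for 69 (25.2%) by at least 1.5-fold over the next, beside 4.26% of all tested genes and 10.5% of the other repressed genes. WT replicate 2 was the highest unheated WT library by at least 1.5-fold for 41 genes (15%), beside 3.37% of all tested genes and 8.01% of the other repressed genes. The rule used the mean of the WT 0 h libraries, so that 1 high library there helps a gene to be chosen. The share for WT is thus in part fixed by the rule. CS2 replicate 1 was the highest in the same sense for 32 genes (11.7%), beside 3.00% of all tested genes and 5.32% of the other repressed genes. Solyc07g065210.4, for example, had 47.5, 30.9 and 16.1 CPM in unheated CS2 and 77.6, 137 and 21.5 CPM in unheated CS3. No label sets these 3 libraries apart from the others, and the source of the spread was not tested.

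Finally, both lines were compared after the heat, where the libraries are those of the rule but the contrast is not. These libraries also entered the count filter, and Solyc01g081210.4, for example, was kept through heated CS2 libraries alone. For such genes a higher level in a heated line is in part fixed by the choice of genes. A count over the genes that met the filter in other libraries was not made here. In edgeR's quasi-likelihood test 7 of the 274 genes (2.55%) were lower in CS3 than in CS2 at an adjusted p of 0.05 and 0 were higher, beside 1.04% and 1.31% of all tested genes. At an unadjusted p of 0.05, 44 genes (16.1%) were lower and 6 higher, beside 9.37% and 7.16%. The median log2 fold change was -0.10 over the 274 genes and -0.17 over the other repressed genes, beside -0.02 over all tested genes. Leaving out 1 heated library changed the number of calls to between 2 and 15. It was 2 without CS2 replicate 2, without CS2 replicate 3 or without CS3 replicate 2, 3 without CS3 replicate 3, and 15 without CS3 replicate 1. Of these 15 genes 13 were lower and 2 higher in CS3, and DESeq2 called 10 lower and 1 higher, so that the calls were not all in 1 direction. For these alternative fits the calls among all tested genes are not given, so that a change relative to them was not tested.

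Solyc09g098490.4 (chr9:68628887-68636227, plus strand) and Solyc09g072690.1 (chr9:61649004-61650710, minus strand) were called in all 6 of these fits. Solyc09g098490.4 had 58.4, 80.1 and 68.4 CPM in heated CS2 and 40.9, 23.4 and 26.6 CPM in heated CS3. Heated WT libraries were lower still, at 10.1, 10.2 and 14.2 CPM. The groups did not overlap, and the edgeR log2 fold change of CS3 over CS2 was -1.19 (SE 0.20, adjusted p = 0.00287). Solyc09g072690.1 had 46.7, 42.3 and 49.1 CPM in heated CS2 and 26.4, 24.6 and 31.3 CPM in heated CS3, again without overlap. Its edgeR log2 fold change was -0.75 (SE 0.13, adjusted p = 0.0049). In heated WT it had 11.5, 12.6 and 11.3 CPM, the lowest of the 3 genotypes.

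The remaining calls depended on single libraries. Solyc06g008510.3, described above, was lower in CS3 by an edgeR log2 fold change of -1.19 (SE 0.24, adjusted p = 0.0128), and it was called in 2 of the 6 fits with 1 heated library left out, with an adjusted p of up to 0.0922. Solyc10g079090.3 (chr10:61462204-61465889, plus strand) had 52.5, 54.0 and 56.4 CPM in heated CS2 and 35.6, 24.0 and 22.3 CPM in heated CS3, with an edgeR log2 fold change of -0.998 (adjusted p = 0.0175), and was also called in 2 of the 6. Solyc01g079520.3, Solyc03g005320.3 and Solyc06g083480.4 made up the 7, the last with an adjusted p of 0.0459 and a call in 0 of the 6 fits.

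The difference between the lines in the change with heat itself was tested as an interaction. Its heated libraries are those of the rule, and its unheated ones entered the count filter. Of the 274 genes 0 passed an adjusted p of 0.05 in edgeR's quasi-likelihood test, beside 0.0914% of all tested genes called higher in CS3 and 0.0131% called lower. At an unadjusted p of 0.05, 35 genes (12.8%) had a lower value in CS3 and 1 a higher one, beside 4.34% and 3.52% of all tested genes. The median was -0.37 over the 274 genes, -0.17 over the other repressed genes and -0.03 over all tested genes. Without CS3 0 h replicate 2, again 0 genes passed, 31 of 261 genes (11.9%) had a lower value and 1 a higher one at an unadjusted p of 0.05, beside 4.81% and 3.35% of all tested genes, and the median was -0.27. The genes kept only through unheated CS3 or heated CS2 libraries are part of these counts. A high level there lowers the value in CS3, so that the number lower is in part fixed by the choice of genes. Their part was not tested.

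The 274 genes lay on all 12 chromosomes. Their share of the tested genes was highest on chromosome 9 (30 genes, 2.70%) and chromosome 3 (38 genes, 2.37%) and lowest on chromosome 5 (13 genes, 1.27%), beside 1.79% in all. On the strands they were split into 141 plus and 133 minus. Their spans were shorter than those of the other genes, with a median of 2676 bases against 3780 bases for the other repressed genes and 4220 bases for all tested genes, and 9.49% were under 1000 bases, against 8.07% and 7.72%. In unheated WT their median CPM was 26.4, against 33.5 for the other repressed genes and 44.9 for all tested genes.

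Some of the genes were neighbours. In 6 cases no other annotated gene lay between them. Among the 2093 genes on chromosomes that were lower in heated WT, 200 were followed directly by another, and since the lists differ in size nothing is read from the 6. Among the 6 pairs were Solyc07g066040.1 and Solyc07g066050.4 on chromosome 7, which were 216 bases apart on the same strand, and Solyc04g008820.3 and Solyc04g008830.1 on chromosome 4, which were 183 bases apart on opposite strands. On chromosome 4 the run went on with Solyc04g008850.1 and Solyc04g008870.3, each with 1 gene between it and the one before. Of the 274 genes 14 overlapped another gene of the annotation, where reads may be shared, and neighbours with similar sequence cannot be told apart from genes that share reads.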

How the data were processed

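RNA-seq reads (75 bases, single-end, strand-specific) of 18 tomato leaf libraries were trimmed, aligned to the M82 assembly and counted by the authors with featureCounts over whole gene spans. The deposited values are raw counts, not normalized. GEO's processing notes name Trimmomatic 0.38, Bowtie2 2.3.5 and SAMtools 1.9, whereas the study's methods name STAR. Alignments with a mapping quality under 30 and PCR duplicates had been removed. Counting admitted reads with several alignments or on overlapping genes, but only among those left by the filter on mapping quality. Counts of near-identical genes are therefore uncertain. The study's methods state fewer replicates than the table holds.

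Start, end and length are deposited as other, descriptive columns. CPM was computed from column totals. The main test was edgeR 4.0.16 (limma 3.58.1, R 4.3.3), quasi-likelihood, TMM, in one fit of 6 conditions over the 15312 genes that reached 50 counts in 2 or more libraries, with Benjamini-Hochberg adjustment and a threshold of 0.05. The common dispersion was 0.0223, and total counts ran from 1713285 to 3669618, which sets the precision. Alternatives were DESeq2 1.42.0, other scalings, filters, pseudocounts and thresholds, a fit of the compared libraries, the omission of single libraries, and a block for the replicate number. A count filter on libraries outside those compared, and the change with heat of the same genes and its difference between the lines without CS3 0 h replicate 2, were added after seeing the data. Both the rule and the fit were tested on simulated data.

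The genes and tests were chosen with earlier results of these data known. Genes named are the 6 furthest above WT in the heated lines, the 4 with the largest fall in WT, the 4 with the highest CPM in unheated WT, the 4 highest and 4 lowest in the lines' change with heat, up to 4 called per test and direction, and 2 on each side of every threshold. Solyc08g074630.2, Solyc01g079520.3, Solyc03g005320.3, Solyc06g083480.4 and the neighbouring genes were added after their values were seen. Planned gene lists and leaf markers, which need gene names, were not used here. A RefSeq table of the assembly SLM_r2.1 matched 0 identifiers.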

Additional observations from a re-analysis of the deposited data

Results flagged for a closer look

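Among the 6 unheated or 6 heated libraries of the lines, 1 library lay far from the others in 9 of 52 groups of values looked at. Chance flags about 1 in 20 groups of independent values from 1 population, but these groups join both lines and share their libraries, so the number of groups is not read as an excess. CS3 0 h replicate 2 was the one in 6 of the 9. It held 54.7 CPM of Solyc06g008510.3 (next 37.9), 62.6 CPM of Solyc01g007170.4 (next 17), 222 CPM of Solyc03g117250.4 (next 192), 159 CPM of Solyc09g075550.3 (next 62.6) and 33.7 CPM of Solyc07g054950.2 (next 15.3). It was also the lowest for Solyc07g032710.4, with 22.8 CPM (next 34.9). CS3 0 h replicate 3 was the lowest for Solyc08g078520.4, with 28.2 CPM (next 38.0). CS2 0 h replicate 1 was the lowest for Solyc09g072690.1, with 75.7 CPM (next 87.6). CS3 1 h replicate 2 was the highest for Solyc07g065210.4, with 20.6 CPM (next 9.62).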

How the results depend on the processing

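The number of genes and of those above -1 in both lines depended most on the thresholds. It also depended on the count filter, the pseudocount and the use of edgeR fold changes. With thresholds of 1.5 it was 56 genes, 32 above -1 in both lines, with medians of the difference from the WT change of 1.95 in CS2 and 1.57 in CS3. With thresholds of 0.8 it was 489 and 282, with a median of 1.00 in CS3. With at least 100 counts it was 178 and 97, and without a filter 387 and 243. A pseudocount of 0.5 CPM gave 328 and 167, and one of 2 CPM gave 202 and 125. On edgeR fold changes it was 383 and 200, with 265 of the 383 among the 274, and the CS3 median was 1.28. Leaving out 1 library in turn gave medians from 1.07 to 1.28 in CS3, with 1.28 without CS3 0 h replicate 2, and 241 to 318 genes by the rule, of which 229 to 274 were among the 274.

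Calls between the heated lines numbered 11 with DESeq2 and 11 without a filter on counts, and 2 to 15 with 1 library left out. Against WT at 0 h, CS2 had 1 call with DESeq2 and 1 without a filter, and CS3 had 2 without a filter and 0 to 1 with 1 library left out. With the replicate number as a block 7 genes were called between the heated lines, and 0 in each of the 3 unheated comparisons. Deviations of same-numbered libraries had correlations of -0.40 to 0.41. Between unheated conditions they ran from -0.02 to 0.41, with 0.38 for replicate 2 of CS3 and WT. Libraries of different numbers were not compared, so whether the numbers pair the libraries was not tested. The median difference of CS2 from WT at 0 h, -0.05, was 0.03 without WT 0 h replicate 2, and with DESeq2 or without a filter 10 of the 11 genes called between the heated lines were lower and 1 higher in CS3. With the count filter met in other libraries, 0 of the 274 genes were called in the unheated comparisons. Low counts in heated WT limit what can be said of single genes. The cause of these changes was not tested.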
